A study of Mus musculus with 6 samples.

Results

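The genes described are 10 core cell-cycle genes: the S and G2 cyclin Ccna2, the mitotic cyclins Ccnb1 and Ccnb2, the E-type cyclins Ccne1 and Ccne2, the kinases Cdk1 and Cdk2, the phosphatases Cdc25b and Cdc25c, and the transcription factor gene Foxm1. They were chosen by symbol among the 43346 genes of the deposited count table. Each symbol matched 1 row, and all 10 passed the filter on low counts that left 14000 genes for testing. The libraries came from C57BL/6 primary mouse embryonic fibroblasts (MEFs) at passage 9, which are fibroblasts cultured from embryos and not a clonal line. 3 libraries were from cells given the solvent DMSO and 3 from cells given 3 µM erastin, both harvested after 24 h. Erastin blocks the cystine/glutamate antiporter and is widely applied as a trigger of ferroptosis, in which cells die as their lipids are peroxidized with the help of iron. Cells of both groups grew in DMEM that held serum, nonessential amino acids, antibiotics and 2-mercaptoethanol, and ribosomal RNA was depleted before Ion Proton sequencing.

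Cyclins are the regulatory subunits of cyclin-dependent kinases (CDKs), and their levels rise and fall through the division cycle. E-type cyclins with CDK2 act at the entry into S phase, cyclin A2 acts in S phase with CDK2 and in G2 with CDK1, and B-type cyclins with CDK1 drive entry into mitosis. CDC25 phosphatases activate CDKs by removing inhibitory phosphates, and FOXM1 activates genes of G2 and mitosis. In dividing fibroblasts the transcripts of the G2 and mitotic group peak late in the cycle, and those of the E-type cyclins peak near the boundary of G1 and S.

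Total counts ran from 13333911 to 20509970 per library, and no pair of libraries agreed within sampling noise. Each library counted as 1 replicate. That disagreement cannot show separate cultures, since separately prepared libraries of 1 culture could also differ so. DMSO replicate 3 lay apart from the other DMSO libraries on the second principal component, and without it 9 of the 10 genes, 34 G2 and mitotic list genes and 18 G1/S list genes were lower, against 8, 36 and 19 with it. The fibroblast label was checked with 10 marker genes, all of them expressed, whose summed level was 35802 to 38800 CPM (counts scaled to library size by TMM) with DMSO and 25692 to 27127 CPM with erastin. Of those markers 8 fell with erastin. Epithelial markers, 6 in number, summed to at most 3.65 CPM in any library, and Krt5 and Cldn4 among them were at 0 in 5 and 4 libraries. Leukocyte markers summed to 14.6 to 19.2 CPM with DMSO and 13.1 to 23.3 CPM with erastin, and 0 of 6 passed the test. The endothelial sum was 4.71 to 7.10 CPM with DMSO and 13.3 to 16.6 CPM with erastin, from Kdr and Tek, with Pecam1, Cdh5 and Tie1 under 1 CPM throughout. The muscle sum was 86.6 to 107 CPM with DMSO and 82.0 to 90.6 CPM with erastin, and the neural sum 72.4 to 101 CPM and 54.8 to 61.5 CPM, carried by Des and Acta1 and by Tubb3 and Map2. Of the muscle markers Des rose, from 35.3 to 45.1 CPM with DMSO to between 64.5 and 68.2 CPM with erastin, and Acta1 fell, from 51.1 to 61.9 CPM to between 17.1 and 22.1 CPM. The markers Myod1, Myog, Myh3, Sox10, Gfap and Sox2 were under 1 CPM throughout. The part of these shifts in the results below was not tested.

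Erastin lowered 8 of the 10 genes and raised 0 of them in edgeR's quasi-likelihood test, with Benjamini-Hochberg adjustment over all 14000 genes and a threshold of 0.05 on the adjusted p-value. Over all genes tested 43.1% were called, with 21.5% of all genes lower and 21.6% higher. The 6 G2 and mitotic genes and Ccna2 fell to between 12.2% and 40.8% of their DMSO level, from 2.45-fold for Cdc25b to 8.21-fold for Ccnb1. Of the 3 genes of the G1/S step, Ccne1 fell 1.68-fold, and Ccne2 and Cdk2 did not pass. The median log2 fold change was -1.56 over the 6 G2 and mitotic genes and -0.68 over the 3 G1/S genes, against -0.0014 over all genes tested. In 8 of the 10 genes every erastin library lay below every DMSO library, as in 25.8% of all genes tested. In bulk RNA, fewer cells in a phase and less of a transcript per cell cannot be told apart.

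**Figure D1:**
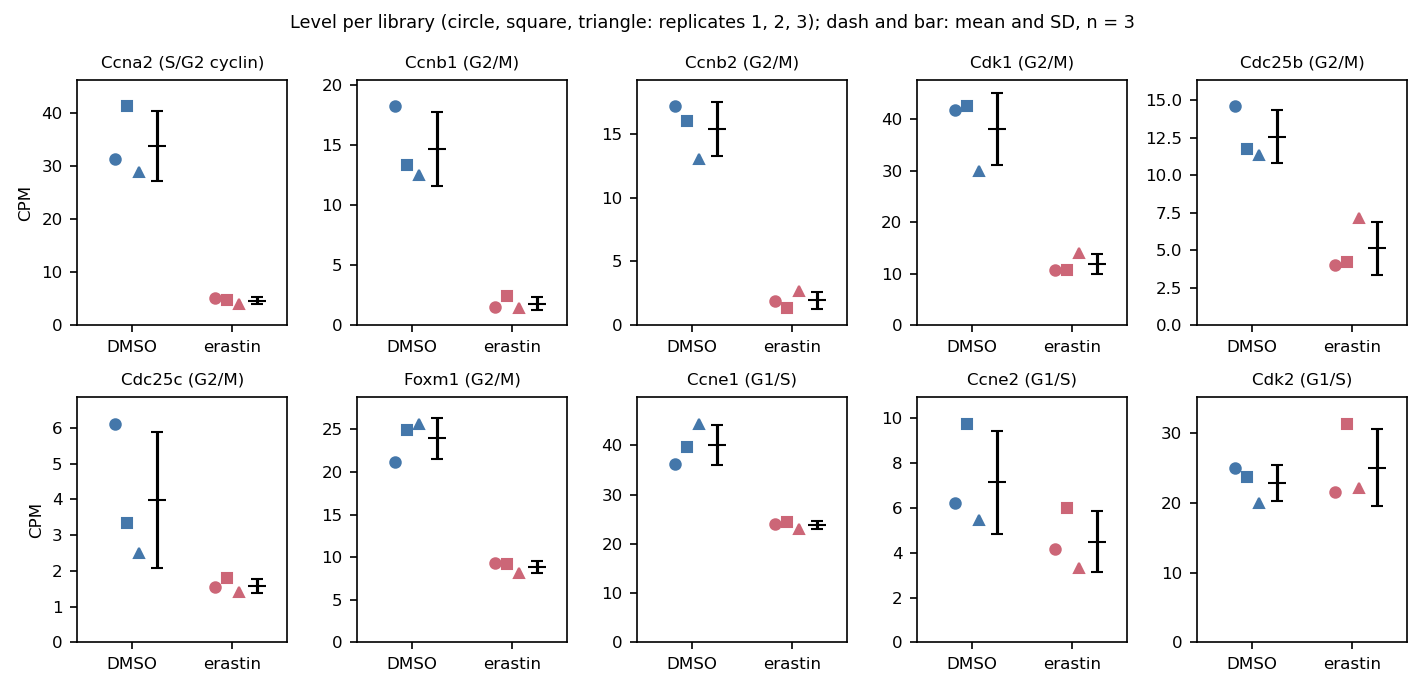
Level of each of the 10 genes in CPM (y axis, from 0) in the 3 DMSO and 3 erastin libraries, with the mean and SD of each group beside the points. The groups do not overlap for 8 genes, while they overlap for Ccne2 and Cdk2.

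Among the cyclins of S phase, G2 and mitosis, the falls were 7.34-fold to 8.21-fold. Ccna2 (ENSMUSG00000027715.5; chromosome 3, 36564865 to 36572150 on the minus strand, GRCm38), the cyclin that serves both CDK1 and CDK2, measured 31.3, 41.3 and 29.0 CPM in DMSO replicates 1, 2 and 3 and 5.17, 4.73 and 3.94 CPM in erastin replicates 1, 2 and 3. The groups were far apart, and the spread among erastin libraries was small. Ccna2 had a log2 fold change of -2.87 (SE 0.18, edgeR adjusted p = 1.95e-08).

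Ccnb1 (ENSMUSG00000041431.12; chromosome 13, 100778650 to 100786570 on the minus strand), which encodes cyclin B1, the main mitotic partner of CDK1, had 18.2, 13.3 and 12.5 CPM in the DMSO and 1.54, 2.45 and 1.40 CPM in the erastin libraries. Its erastin counts were 33, 41 and 27 reads, so counting error alone is sizeable there. The gene had a log2 fold change of -3.04 (SE 0.27, edgeR adjusted p = 6.28e-07), rank 78 of 14000 genes ordered from the most negative. Ccnb2 (ENSMUSG00000032218.6; chromosome 9, 70407692 to 70421547 on the minus strand), encoding the Golgi-associated cyclin B2, had 17.2, 16.0 and 13.0 CPM in the DMSO and 1.91, 1.32 and 2.64 CPM in the erastin libraries. The lowest DMSO library was well above the highest erastin library for both B-type genes. For Ccnb2 the log2 fold change was -2.96 (SE 0.26, edgeR adjusted p = 5.61e-07). The count ratio of Ccnb1 to Ccnb2 overlapped between groups: its mean log2 value was -0.076 ± 0.176 with DMSO and -0.11 ± 0.911 with erastin (SD, n = 3; exact two-sided permutation p = 0.9).

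Cdk1 (ENSMUSG00000019942.8; chromosome 10, 69335146 to 69352938 on the minus strand), the kinase of mitotic entry, had 41.7, 42.5 and 30.0 CPM in the DMSO libraries. It had 10.7, 10.7 and 14.1 CPM in the erastin libraries. DMSO replicate 3 was the lowest of its group and still lay above erastin replicate 3, the highest of the other. Cdk1 had a log2 fold change of -1.69 (SE 0.16, edgeR adjusted p = 1.24e-06), which left 31.0% of the DMSO level.

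Foxm1 (ENSMUSG00000001517.10; chromosome 6, 128362967 to 128376146 on the plus strand), whose product activates the transcription of mitotic genes such as Ccnb1, had 21.2, 24.9 and 25.7 CPM in the DMSO libraries. In the erastin libraries it had 9.36, 9.22 and 8.09 CPM. Both groups were tight, with a log2 fold change of -1.43 (SE 0.16, edgeR adjusted p = 4.33e-06) that left 37.2% of the DMSO level. The 95% confidence intervals of Foxm1 (-1.76 to -1.09) and Ccnb1 (-3.62 to -2.45) did not overlap.

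Both phosphatase genes fell, and the call of Cdc25c depended on single libraries. Cdc25b (ENSMUSG00000027330.12; chromosome 2, 131186949 to 131198497 on the plus strand), whose product starts CDK1 activation in G2, had 14.6, 11.8 and 11.4 CPM in the DMSO and 4.0, 4.19 and 7.16 CPM in the erastin libraries. Erastin replicate 3 was the highest of its group but below every DMSO library (log2 fold change -1.29, SE 0.25, edgeR adjusted p = 0.00075). Cdc25c (ENSMUSG00000044201.9; chromosome 18, 34732993 to 34751533 on the minus strand), which acts at mitotic entry, had 6.12, 3.33 and 2.49 CPM in the DMSO and 1.54, 1.80 and 1.40 CPM in the erastin libraries. The DMSO libraries were spread widely, with replicate 1 at the top. The log2 fold change was -1.33 (SE 0.43, edgeR adjusted p = 0.022), and the call was lost without DMSO replicate 1 (log2 fold change -0.89, edgeR adjusted p = 0.168), without erastin replicate 1 (edgeR adjusted p = 0.0665) and without erastin replicate 3 (edgeR adjusted p = 0.054). Over all alternatives its edgeR or DESeq2 adjusted p ran from 0.00782 to 0.168.

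The genes of the G1/S step had fold changes nearer to 0. Ccne1 (ENSMUSG00000002068.12; chromosome 7, 38097984 to 38107534 on the minus strand), encoding the cyclin E1 that activates CDK2, had 36.2, 39.6 and 44.4 CPM in the DMSO and 24.1, 24.5 and 23.0 CPM in the erastin libraries. The erastin libraries were nearly equal, and all lay below the DMSO libraries. For Ccne1 the log2 fold change was -0.75 (SE 0.12, edgeR adjusted p = 0.000109), leaving 59.5% of the DMSO level.

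Ccne2 (ENSMUSG00000028212.12; chromosome 4, 11191351 to 11204779 on the plus strand), encoding the second E-type cyclin, had 6.20, 9.76 and 5.45 CPM in the DMSO and 4.14, 5.99 and 3.32 CPM in the erastin libraries. The groups overlapped, because erastin replicate 2 lay above DMSO replicate 3. The log2 fold change was -0.68 (SE 0.31, edgeR adjusted p = 0.0883), a size close to that of Ccne1 with a wider interval (-1.34 to -0.025). It passed after an offset for GC content and transcript length (log2 fold change -0.89, edgeR adjusted p = 0.0285; 0.0155 with the replicate block added), without DMSO replicate 3 (edgeR adjusted p = 0.0423) and without erastin replicate 2 (edgeR adjusted p = 0.0417). Without DMSO replicate 2, the highest of its group, the log2 fold change was -0.38. Its edgeR or DESeq2 adjusted p ran from 0.0155 to 0.421 over the alternatives.

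Cdk2 (ENSMUSG00000025358.11; chromosome 10, 128697939 to 128705031 on the minus strand), the kinase of S-phase entry, had 24.9, 23.7 and 19.9 CPM in the DMSO and 21.5, 31.3 and 22.1 CPM in the erastin libraries. The groups overlapped, with erastin replicate 2 the highest and DMSO replicate 3 the lowest. The log2 fold change was 0.13 (SE 0.16, edgeR adjusted p = 0.565), and its 95% confidence interval of -0.22 to 0.47 did not reach the size of the fall of any gene that passed. Without erastin replicate 2 the value was -0.066.

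**Figure D2:**
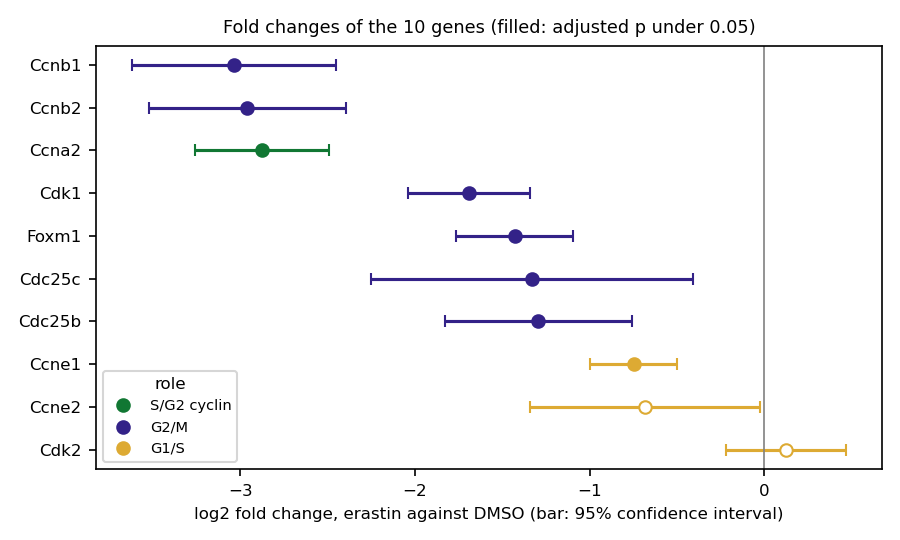
Log2 fold change of erastin against DMSO (x axis) for the 10 genes, ordered from the most negative, with 95% confidence intervals and colours for the step of the cycle. Ccnb1, Ccnb2 and Ccna2 lie between -3.04 and -2.87, the other G2 and mitotic genes between -1.69 and -1.29, and the G1/S genes between -0.75 and 0.13.

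The balance between kinases and between cyclins was compared within libraries, since a ratio of counts does not depend on how libraries are scaled. With 3 against 3 libraries the smallest two-sided p of an exact permutation test is 0.1, so none of these 5 ratios could pass. Cdk1 reads outnumbered Cdk2 reads in every DMSO library, with log2 ratios of 0.74, 0.84 and 0.59, and were outnumbered in every erastin library, with -1.01, -1.54 and -0.65 (exact permutation p = 0.1, 0.25 adjusted over the 5 pairs). The mean log2 ratio moved by -1.79. That of Ccnb1 to Ccne1 was -0.99, -1.57 and -1.82 in the DMSO and -3.95, -3.30 and -4.01 in the erastin libraries, a shift of -2.29 (exact permutation p = 0.1, 0.25 adjusted). Both ratios separated the groups. The ratios of Ccne1 to Ccne2 (mean log2 value 2.53 ± 0.5 and 2.45 ± 0.386, SD, n = 3; exact permutation p = 0.8) and of Cdc25b to Cdc25c (1.74 ± 0.466 and 1.64 ± 0.608, SD, n = 3; exact permutation p = 0.9) overlapped between DMSO and erastin, as that of the B-type pair did.

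**Figure D3:**
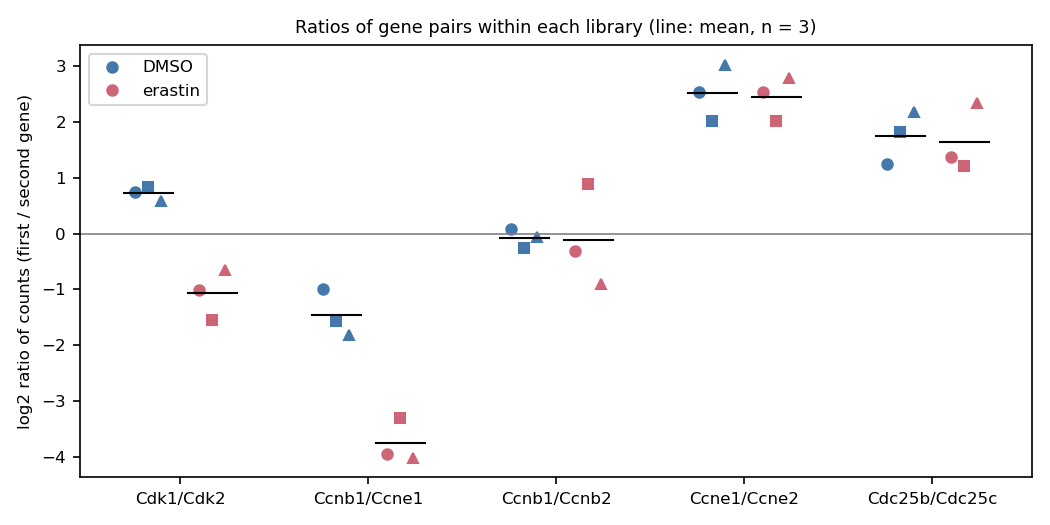
Log2 ratio of the counts of 2 genes within each library (y axis) for 5 pairs, with DMSO and erastin libraries side by side and a line at each mean. Cdk1/Cdk2 changes sign between the groups, Ccnb1/Ccne1 is lower in all erastin libraries, and the other 3 ratios overlap.

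The mean log2 CPM of the 3 G1/S genes exceeded that of the 6 G2 and mitotic genes by 0.059, 0.53 and 0.45 in the DMSO libraries. The excess was 1.84, 2.14 and 1.53 in the erastin libraries. The difference between group means was 1.49, with no overlap, and it is given as a description without a test. It ran from 1.34 to 1.64 when 1 library was left out.

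Levels of different genes were compared as RPKM, the CPM divided by the length in kilobases of the longest coding transcript. In DMSO, Ccne1 was highest at 20.04 ± 2.07 RPKM, followed by Ccna2 (11.4 ± 2.21), Ccnb2 (10.0 ± 1.40), Cdk2 (9.49 ± 1.08) and Cdk1 (8.70 ± 1.61; SD, n = 3 each), and the ranges of 1 SD around the last 4 overlapped from each to the next. Ccnb1 (5.90 ± 1.24), Foxm1 (5.14 ± 0.522), Cdc25b (4.07 ± 0.569), Ccne2 (2.37 ± 0.766) and Cdc25c (2.05 ± 0.977 RPKM) followed, and of these neighbours only Cdc25b and Ccne2 had separate ranges. With erastin the order was led by Ccne1 (11.9 ± 0.377 RPKM) and Cdk2 (10.4 ± 2.28 RPKM), which overlapped, and the next was Cdk1 at 2.70 ± 0.444 RPKM. Ccnb1 was the last of the 10 at 0.722 ± 0.23 RPKM, not separated from Cdc25c at 0.811 ± 0.103 RPKM. These ranks rest on the transcript length used: with its next longest coding transcript (1253 in place of 4375 bases) Cdk1 would stand at 30.4 RPKM in DMSO.

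Over the 5 cyclin genes, summed RPKM fell from 49.8 ± 2.76 to 16.98 ± 0.722 (SD, n = 3). E-type transcripts made up 40.9%, 43.7% and 50.8% of that sum in DMSO libraries and 78.8%, 80.5% and 77.7% in erastin libraries. The B-type share was 32.0% ± 4.88 with DMSO and 11.8% ± 1.98 with erastin, and the Ccna2 share 22.8% ± 3.12 and 9.15% ± 1.03 (SD, n = 3). The groups did not overlap in any of these shares, which have no test because they sum over the chosen genes. The shares also rest on transcript length: with its next longest coding transcript (608 in place of 2000 bases) Ccne1 would stand at 65.9 RPKM in DMSO and 39.2 RPKM in erastin libraries, which would raise the E-type share in both groups.

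**Figure D4:**
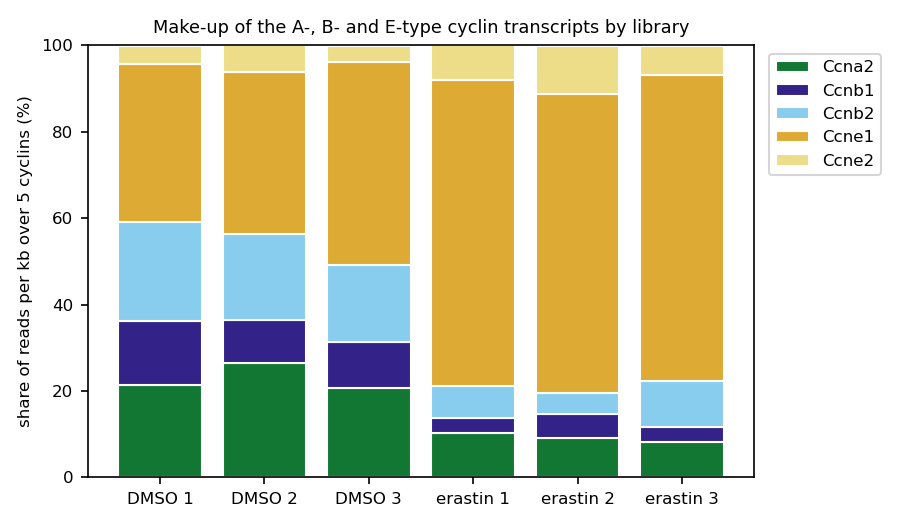
Share of each cyclin gene in the summed reads per kilobase of the 5 cyclin genes (y axis, percent) in each of the 6 libraries. Ccne1 takes 36.8% to 47.0% of the sum with DMSO and 69.3% to 70.9% with erastin.

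Promoter sequences are shown because many genes of G2 and mitosis are known to share 2 promoter elements. These are the cell-cycle genes homology region (CHR), bound by the MuvB complex with B-MYB and FOXM1 or with the repressive DREAM partners, and the CCAAT box, bound by NF-Y. Promoters of 6 of the 10 genes were taken from RefSeq (GRCm38.p6), each with 250 bases before and 50 bases after the start site. Ccna2, Ccne2 and Foxm1 had no promoter in the set used, and Cdc25c was left out of the search. The promoters are therefore not set against the size of the fall. Capitals mark TTTGAA or TTTAAA (searched as the CHR), CCAAT and the E2F-type motif TTTNGCGC, on both strands, and none of the 17 matches overlaps another.
Ccnb1, chr13:100786437-100786736, minus strand: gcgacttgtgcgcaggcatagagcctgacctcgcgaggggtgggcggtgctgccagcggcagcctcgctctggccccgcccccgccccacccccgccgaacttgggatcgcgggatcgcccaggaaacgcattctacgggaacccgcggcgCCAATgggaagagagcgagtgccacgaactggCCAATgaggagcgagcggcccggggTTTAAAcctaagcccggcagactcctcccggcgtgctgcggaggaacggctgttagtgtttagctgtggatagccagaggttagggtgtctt
Ccnb2, chr9:70421505-70421804, minus strand: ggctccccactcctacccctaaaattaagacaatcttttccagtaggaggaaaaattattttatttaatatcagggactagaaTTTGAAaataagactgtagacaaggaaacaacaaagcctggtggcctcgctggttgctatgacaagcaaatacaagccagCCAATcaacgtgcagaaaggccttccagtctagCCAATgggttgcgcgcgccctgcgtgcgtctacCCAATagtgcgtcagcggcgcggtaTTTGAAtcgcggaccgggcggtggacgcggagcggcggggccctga
Cdk1, chr10:69352863-69353162, minus strand: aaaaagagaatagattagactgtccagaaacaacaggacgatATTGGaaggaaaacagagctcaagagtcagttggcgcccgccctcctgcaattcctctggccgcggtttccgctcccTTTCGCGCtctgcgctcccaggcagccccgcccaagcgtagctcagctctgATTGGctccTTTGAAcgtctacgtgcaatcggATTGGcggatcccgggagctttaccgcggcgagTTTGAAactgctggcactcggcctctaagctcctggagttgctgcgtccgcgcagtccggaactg
Cdc25b, chr2:131186698-131186997, plus strand: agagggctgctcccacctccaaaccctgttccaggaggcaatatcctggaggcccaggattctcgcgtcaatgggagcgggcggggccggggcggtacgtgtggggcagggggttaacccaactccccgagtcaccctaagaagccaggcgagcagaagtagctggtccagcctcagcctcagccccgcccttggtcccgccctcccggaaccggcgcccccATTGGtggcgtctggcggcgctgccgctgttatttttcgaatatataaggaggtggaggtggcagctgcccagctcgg
Ccne1, chr7:38107441-38107740, minus strand: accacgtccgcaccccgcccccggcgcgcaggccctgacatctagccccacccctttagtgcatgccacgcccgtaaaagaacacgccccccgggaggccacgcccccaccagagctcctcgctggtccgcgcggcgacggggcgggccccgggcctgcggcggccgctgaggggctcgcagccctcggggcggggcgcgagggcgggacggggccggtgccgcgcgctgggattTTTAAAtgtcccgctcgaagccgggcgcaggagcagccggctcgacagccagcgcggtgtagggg
Cdk2, chr10:128705002-128705301, minus strand: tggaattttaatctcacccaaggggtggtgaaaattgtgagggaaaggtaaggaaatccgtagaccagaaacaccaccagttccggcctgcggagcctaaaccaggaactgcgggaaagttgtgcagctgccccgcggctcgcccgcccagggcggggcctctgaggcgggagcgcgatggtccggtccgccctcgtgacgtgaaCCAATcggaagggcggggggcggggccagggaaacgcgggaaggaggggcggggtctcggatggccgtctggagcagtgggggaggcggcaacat

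The promoters of Ccnb1, Ccnb2 and Cdk1 each held at least 1 CHR match and 2 or more CCAAT boxes. In Ccnb1 the CCAAT boxes began 99 and 67 bases before the start site and TTTAAA began 42 bases before it. In Ccnb2 the 3 CCAAT boxes began at -87, -54 and -21, with TTTGAA at 5 and at -167. Cdk1 had TTTGAA at -71 and -15, and CCAAT boxes at -208, -80 and -48 on the opposite strand. It also had TTTCGCGC at -131, the only match to TTTNGCGC in the 6 promoters. No other form of the E2F-type motif was searched, so other E2F sites may be unmarked.

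Cdc25b had 1 CCAAT box, on the opposite strand at -28, and no match to the 2 CHR words. Among the G1/S genes, Ccne1 had TTTAAA at -15 and no CCAAT box, and Cdk2 had a CCAAT box at -45 and no CHR match. Of 32851 mouse promoters of this length 27.6% held a CHR match, 37.4% a CCAAT box, 10.7% both and 1.38% the E2F-type motif. A match is a run of letters and not a measured binding site.

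The wider programmes were read from 6 gene lists, some of which share genes (Plk1, Aurka, Ube2c and Cdc20, for example, are also in the G2 and mitotic list). Of 38 genes of G2 and mitosis outside the 10, 36 (94.7%) fell and 0 rose, beside 21.5% and 21.6% of all genes tested, at a median log2 fold change of -2.26, and 32 fell by at least 1 on the log2 scale, as 7.16% of all genes did. The proliferation antigen gene Mki67 fell from 87.0 ± 20.4 CPM to 9.07 ± 0.981 CPM (n = 3, SD; edgeR adjusted p = 1.9e-09). Top2a, encoding the topoisomerase that untangles sister chromatids, Anln, for the cytokinesis protein anillin, and the mitotic kinesin gene Kif20a had log2 fold changes of -2.32, -1.98 and -2.10 (edgeR adjusted p at most 2.09e-08). The 2 genes that did not pass, Tpx2 (-0.24, edgeR adjusted p = 0.057) and Pttg1 (-0.54, edgeR adjusted p = 0.0603), are named after their values were seen. For 33 genes of this list 36 promoters were found. Of these promoters 29 (80.6%) held a CHR match and 72.2% held both a CHR match and a CCAAT box. The list was drawn up as genes under the FOXM1 and B-MYB-MuvB programme, so these shares are not independent of its choice.

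Of 38 genes of the G1/S transition and DNA replication, 19 (50%) fell and 1 (2.63%) rose, beside 21.5% and 21.6% of all genes tested, at a median log2 fold change of -0.63. In this list 10 genes fell by at least 1 on the log2 scale, as 7.16% of all genes did. Tk1, the thymidine kinase gene, fell from 11.1 ± 0.806 CPM to 0.918 ± 0.193 CPM and Mcm5, for a subunit of the replicative helicase, from 27.9 ± 2.13 CPM to 5.90 ± 0.0899 CPM (n = 3, SD; edgeR adjusted p = 2.07e-07 and 4.29e-08). Uhrf1, needed to maintain DNA methylation at replication, and the helicase gene Mcm6 had log2 fold changes of -1.43 and -0.87 (edgeR adjusted p = 4.91e-05 and 5.67e-05). The 1 gene that rose, the licensing factor gene Cdt1, is named after its value was seen (6.10 ± 0.831 CPM to 10.6 ± 3.65 CPM, n = 3, SD; edgeR adjusted p = 0.0228), and it did not pass without DMSO replicate 1, DMSO replicate 2 or erastin replicate 2. For 31 genes of this list 35 promoters were found. Of these promoters 9 (25.7%) held a CHR match and 37.1% the E2F-type motif, against 2.78% in the G2 and mitotic list. A CCAAT box was in 71.4% of them, near the 80.6% of the G2 and mitotic list promoters, and 20% held both a CHR match and a CCAAT box. The G1/S list was drawn up as E2F-type genes, so its shares too are not independent of its choice. The difference between the lists was not tested.

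**Figure D5:**
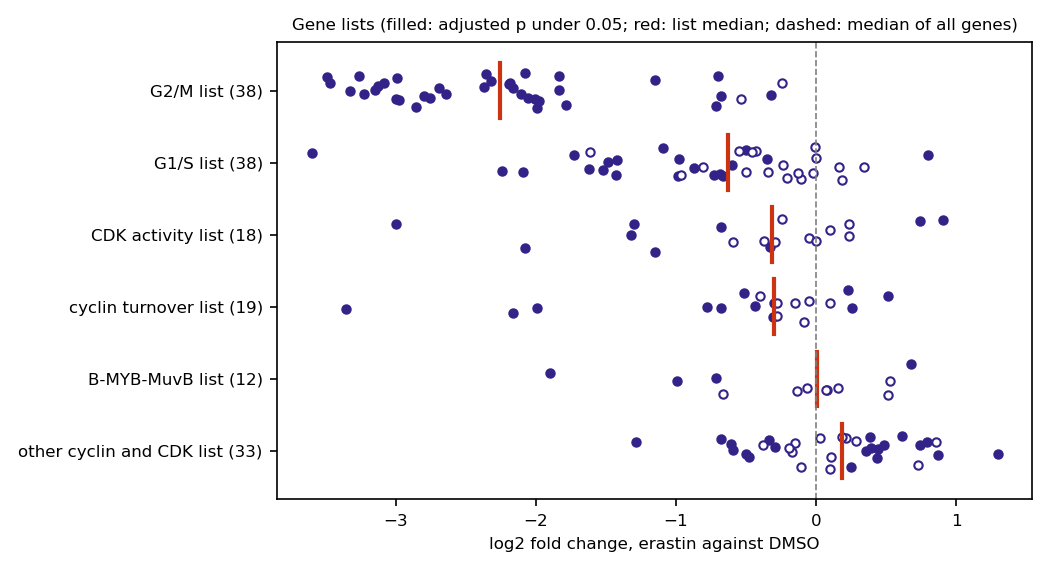
Log2 fold change of erastin against DMSO (x axis) for each gene of 6 lists, filled where the adjusted p-value is under 0.05, with list medians in red. The G2/M list has a median of -2.26 and the G1/S list of -0.63, and the other 4 medians lie between -0.31 and 0.18.

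Of 18 genes that switch CDK complexes on or off, 7 (38.9%) fell and 2 (11.1%) rose, beside 21.5% and 21.6% of all genes tested. Cdkn1a, encoding the CDK inhibitor p21, rose from 748 ± 34.8 CPM to 1401 ± 44.7 CPM (n = 3, SD; log2 fold change 0.91, edgeR adjusted p = 7.5e-08). The related inhibitor genes Cdkn1c and Cdkn1b, named after their values were seen, did not rise. Cdkn1c fell (log2 fold change -0.68, edgeR adjusted p = 0.00136), and Cdkn1b did not pass (-0.29, edgeR adjusted p = 0.0693). The polo-like kinase gene Plk1 fell from 17.3 ± 0.685 CPM to 2.15 ± 0.741 CPM (n = 3, SD; edgeR adjusted p = 2.45e-07), the kinase gene Aurka had a log2 fold change of -2.08, and Cks1b, for a small CDK-binding protein, one of -1.30 (edgeR adjusted p = 5.13e-06 and 7.14e-07). Cdk7, the kinase that phosphorylates the activating loop of CDKs, was the other gene that rose (0.74, edgeR adjusted p = 1.22e-05). The third phosphatase gene, Cdc25a, and the inhibitory kinase genes Wee1 and Pkmyt1, named after their values were seen, had log2 fold changes of -0.0047, -0.24 and -0.60 and did not pass (edgeR adjusted p = 0.988, 0.412 and 0.239).

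Of 19 genes for the ubiquitin ligases that degrade cyclins and their regulators, 9 (47.4%) fell and 3 (15.8%) rose, beside 21.5% and 21.6% of all genes tested, but 1 rose in place of 3 without DMSO replicate 3, without erastin replicate 1 or without erastin replicate 2. Ube2c and Cdc20, the ubiquitin-conjugating enzyme and an activator of the anaphase-promoting complex, had log2 fold changes of -2.16 and -1.99 (edgeR adjusted p = 7.23e-08 and 6.86e-06). Fbxo5, encoding the inhibitor EMI1 of that complex, fell from 6.59 ± 1.53 CPM to 0.635 ± 0.477 CPM (n = 3, SD; edgeR adjusted p = 0.000119). Its counts in erastin replicates 1, 2 and 3 were 22, 13 and 2 reads, so counting error is sizeable there. The log2 fold change of Fbxo5 ran from -3.93 to -2.85 when 1 library was left out. The cullin gene Cul1 rose by 0.51 (edgeR adjusted p = 0.000174). Subunits of MuvB and its partners, 12 in number, had 3 genes (25%) lower and 1 (8.33%) higher. The share of lower genes is near the 21.5%, and that of higher genes under the 21.6%, of all genes tested. The median was 0.0029, whose sign changed between alternatives, and 2 genes were higher without DMSO replicate 2 or 3. Mybl2, encoding B-MYB, fell from 4.53 ± 0.344 CPM to 1.20 ± 0.44 CPM (n = 3, SD; edgeR adjusted p = 0.00173). The pocket protein gene Rbl1 and E2f5 had log2 fold changes of -0.72 and -0.99, and the DNA-binding subunit gene Lin54 one of 0.67 (edgeR adjusted p = 0.00995, 0.0173 and 0.0103). The call of E2f5 was lost without DMSO replicate 2 (edgeR adjusted p = 0.0924) and without erastin replicate 3 (edgeR adjusted p = 0.0556).

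For 4 of the genes, those with the most similar pattern were taken as the smallest root mean square difference of centred log2 CPM over the 6 libraries, restricted to genes that averaged 50 or more counts. The nearest to Ccna2 were the mitotic kinase gene Aurkb (0.17), Pclaf, for a PCNA-binding factor (0.20), and the chemokine gene Cxcl5 (0.20). The nearest to Ccnb1 were the histone gene Hist1h3i (0.21), whose near-identical copies make its count uncertain, Aurkb (0.23) and the spindle protein gene Fam83d (0.24). Foxm1 lay nearest to Ptms (0.066), Dbi (0.084) and Gucy1a2 (0.086), and Ccne1 to Tubb2b (0.036), Lgr4 (0.040) and Arsa (0.044). By this measure genes of similar fold change lie close together: the log2 fold change was -2.85 for Aurkb and -2.90 for Cxcl5, beside -2.87 for Ccna2.

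Of the 10 genes 6 overlap another annotated gene, and whether the strand was used in counting is not given in the sources used here. The longest overlap is that of Ccne2 with Ints8 on the opposite strand (5622 bases), and the mean level of Ints8 was 43.7 CPM with DMSO and 34.95 CPM with erastin (log2 fold change -0.32, edgeR adjusted p = 0.0283). Ccna2 shares 863 bases with Exosc9 (log2 fold change 0.14, edgeR adjusted p = 0.496), Cdc25b 334 bases with Spef1 and Cdk2 837 bases with Pmel, which had a mean of 0.528 CPM in DMSO. Cdc25c overlaps Gm3550, and Foxm1 overlaps Tex52 and Gm44596, 3 genes that did not pass the filter on low counts. The overlaps of Foxm1 (691 and 644 bases) are on its own strand, where use of the strand would not separate reads. All the others are on opposite strands. Overlaps were measured between whole gene spans, introns included.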

How the data were processed

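The authors deposited whole-number read counts per gene for 6 libraries, without normalization. HTSeq 0.9.1, SAMtools and the build mm10 are named, without roles, per the submitters' processing notes; the aligner and annotation are not given in the sources used here. Identifiers without version were matched to GENCODE M21 (GRCm38), and 42462 had a symbol; Fam64a was matched as Pimreg. Counts were tested with edgeR 4.0.16 in R 4.3.3: filterByExpr at its defaults (14000 genes), TMM factors, and glmQLFit and glmQLFTest with treatment as the only term, called at an adjusted p-value under 0.05. The script recovered known changes in simulated data in which a small part of the genes changed. That check does not cover change as wide as here, where 43.1% of genes were called. CPM uses the TMM factors. A floor of 3 counts was worth 0.14 to 0.23 CPM, for counting error only, since libraries were amplified by PCR.

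Groups and replicate numbers came from the titles. The study states 3 repeats of the experiment. The 10 genes and the 6 lists were chosen with earlier results of these data known. Named genes are the 10, from each list the 4 with the lowest unadjusted p, and the 3 most similar to each of Ccna2, Ccnb1, Ccne1 and Foxm1. Alternatives were other scalings (RLE, upper-quartile, total count), filters (none, 1 CPM in 3 libraries), a replicate block, DESeq2 1.42.0, an adjusted p-value under 0.01, an offset for GC content and length (mgcv 1.9.3) with and without the block, and leaving out each library.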

Additional observations from a re-analysis of the deposited data

How the results depend on the processing

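The number of the 10 genes called lower stayed between 7 and 9 over 16 alternatives, that of the G2 and mitotic list between 33 and 38 and that of the G1/S list between 16 and 20, and 4305 to 6104 genes were called in all. Leaving out 1 library gave 7 to 9, 33 to 36, 16 to 20 and 4802 to 5809. Ccna2, Ccnb1, Ccnb2, Cdk1, Cdc25b, Foxm1 and Ccne1 passed as lower in all 16.

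Genes higher in the G1/S list, reported as 1, were 2 with total count only and with the filter of 1 CPM in 3 libraries, 0 with the threshold at 0.01, and 0 to 1 without 1 library. In the B-MYB-MuvB list, reported as 1, they were 2 with total count only and with the offset for GC content and length (alone or with the replicate block), 0 with the threshold at 0.01, and 1 to 2 without 1 library. In the cyclin turnover list, reported as 3, they were 1 with upper-quartile factors, with the offset (alone or with the block), and with the threshold at 0.01, and 1 to 2 without 1 library.

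The B-MYB-MuvB median was 0.068 with total count only, -0.075 with the offset and -0.077 with the offset and the block. With the offset the medians of the G1/S and G2/M lists were -0.73 and -2.37, and with the block added -0.73 and -2.38. The CDK activity median was -0.25 with total count only. Without 1 library the medians ran from -0.38 to -0.23 for CDK activity and from 0.10 to 0.23 for the other cyclins and CDKs. The medians of the other cyclins and CDKs were 0.10 without DMSO replicate 3 and 0.11 without erastin replicate 2. Cdk2 ran from -0.066 (without erastin replicate 2) to 0.22 without 1 library. The log2 ratio shift of Ccnb1 to Ccnb2 ran from -0.53 to 0.36, of Ccne1 to Ccne2 from -0.33 to 0.17 and of Cdc25b to Cdc25c from -0.46 to 0.11 without 1 library. The cause of these changes was not tested. Upper-quartile factors made 44.0% of all calls higher ones and total count only 57.1%, against 50.2% as reported, with medians of all genes of -0.055 and 0.065.

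Equally numbered libraries deviated from their group means with correlations of 0.040, 0.0038 and -0.0055. Those with different numbers averaged -0.0063, but centring within groups ties this value to the others, so it is no separate baseline. By their own correlations, libraries of equal number showed little shared deviation. These values cannot decide whether such libraries were handled together, because the spread among libraries could hide a small shared effect. With the replicate block 8 of the 10 genes, 36 G2/M list genes and 20 G1/S list genes were lower and 5882 genes were called in all. Depth limits the genes under about 5 CPM, where the lowest erastin counts of Ccnb1, Ccnb2 and Cdc25c were 27, 22 and 27 reads.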

Other observations

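Of 33 other cyclin and CDK genes tested, 8 (24.2%) fell and 12 (36.4%) rose, beside 21.5% and 21.6% of all genes tested, so that the share of lower genes is near that of all genes. Their median log2 fold change was 0.18, and Ccna1 and Ccnb3 did not pass the filter on low counts. The D-type cyclin genes, whose products activate CDK4 and CDK6 in G1, fell: Ccnd3 from 105 ± 7.04 CPM to 42.9 ± 3.58 CPM and Ccnd1 from 638 ± 44.2 CPM to 423 ± 6.61 CPM (n = 3, SD; edgeR adjusted p = 8.04e-08 and 8.16e-06). Ccnd2, named after its values were seen, fell by 0.50 on the log2 scale (edgeR adjusted p = 2.76e-05). Among those that rose were Cdk7, which also serves in transcription initiation, from 51.2 ± 3.41 CPM to 85.6 ± 4.96 CPM, and Cdk17 from 42.4 ± 4.05 CPM to 73.4 ± 5.63 CPM (n = 3, SD; edgeR adjusted p = 1.22e-05 and 1.77e-05).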
